A study of Mus musculus with 6 samples.

Results

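10 genes of the calcium/calmodulin-dependent kinase (CaMK) family were compared, paralogue by paralogue, between the hippocampus of control mice and that of mice lacking the lysine acetyltransferase CBP in forebrain excitatory neurons. The 10 genes were Camkk1 and Camkk2, Camk1, Camk1d and Camk1g, Camk4, Camk2b, Camk2d and Camk2g, and Camkv, out of 55471 genes in the count table, and all 10 passed the filter on low counts that left 17981 genes for testing. They were chosen by family membership, and from the fold changes of this same comparison, which were known when the list was made. The differences below therefore describe these genes, and no test of them as a group is given. Camk2a and Pnck, which belong to the same subfamilies, were not among the 10 and are given beside them where a subfamily is summed.

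6 RNA samples were sequenced, 3 per genotype, from C57BL/6 mice aged 3 to 6 months. CBP-ifKO mice carried floxed alleles of Crebbp, the gene of CBP, together with the Camk2a_creERT2 transgene, an estrogen receptor-bound Cre recombinase driven by the Camk2a promoter. According to the methods of the study, both groups received 5 administrations of tamoxifen at 20 mg/mL, Control mice were littermates without the recombinase, and each sample pooled hippocampi of several females. Because the driver is restricted to excitatory neurons, glia and interneurons keep CBP. In whole hippocampus, fewer cells of a type and less RNA per cell cannot be told apart.

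The calmodulin kinases translate a rise of calcium into phosphorylation. Calcium-loaded calmodulin opens the catalytic site of each kinase. In the cascade branch, the upstream kinases CaMKK1 and CaMKK2 then phosphorylate the activation loop of CaMKI and CaMKIV, and nuclear CaMKIV in turn phosphorylates CREB, the factor that recruits CBP to DNA. CaMKII stands apart from the cascade: its subunits assemble into large holoenzymes that phosphorylate each other, and it is among the most abundant proteins of the postsynaptic density. Camkv encodes a vesicle-associated relative of these kinases that binds calmodulin but lacks kinase activity.

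Total counts ran from 10199008 to 14950257 per library. The targeted gene was lower in the CBP-ifKO libraries, Crebbp reaching between 156.4 and 208.6 CPM (counts scaled by TMM to a common library size) in Control and between 87.1 and 108.6 CPM in CBP-ifKO. The description label of the Control samples also names Camk2a_creERT2, but Esr1, whose reads include those of the estrogen receptor part of the recombinase, stood at 5.65 to 6.29 CPM in Control against 63.6 to 69.4 CPM in CBP-ifKO. The slope of a library's log2 counts on GC content ran from -0.12 per 10 percentage points in CBP-ifKO replicate 2 to 0.14 in Control replicate 2. The differences below were therefore also computed with these trends removed, and without each library.

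Of the 10 genes, 6 were past the threshold (edgeR's quasi-likelihood test, Benjamini-Hochberg adjusted p under 0.05 over all genes tested) and lower in CBP-ifKO: Camkk1, Camkk2, Camk1d, Camk1g, Camk4 and Camkv. None was higher at that threshold with edgeR or DESeq2, and 1, Camk2d, had an unadjusted edgeR p under 0.05. Over all genes tested, 4.99% were called lower and 1.4% were called higher. In 7 of the 10 every CBP-ifKO library lay below every Control library, and in 1, Camk2d, every CBP-ifKO library lay above, where the corresponding shares of all genes tested were 13.9% and 11.8%. The median log2 fold change of the 10 genes was -0.38, against -0.0033 over all genes tested. These counts are printed as a description, since the same contrast entered the choice of the genes. Camkk1, Camkk2, Camk4 and Camkv were on the lower side, and the CaMKII paralogues lay close to their Control level. The CaMKI paralogues were spread between no difference and the largest difference of the 10.

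**Figure D1:**
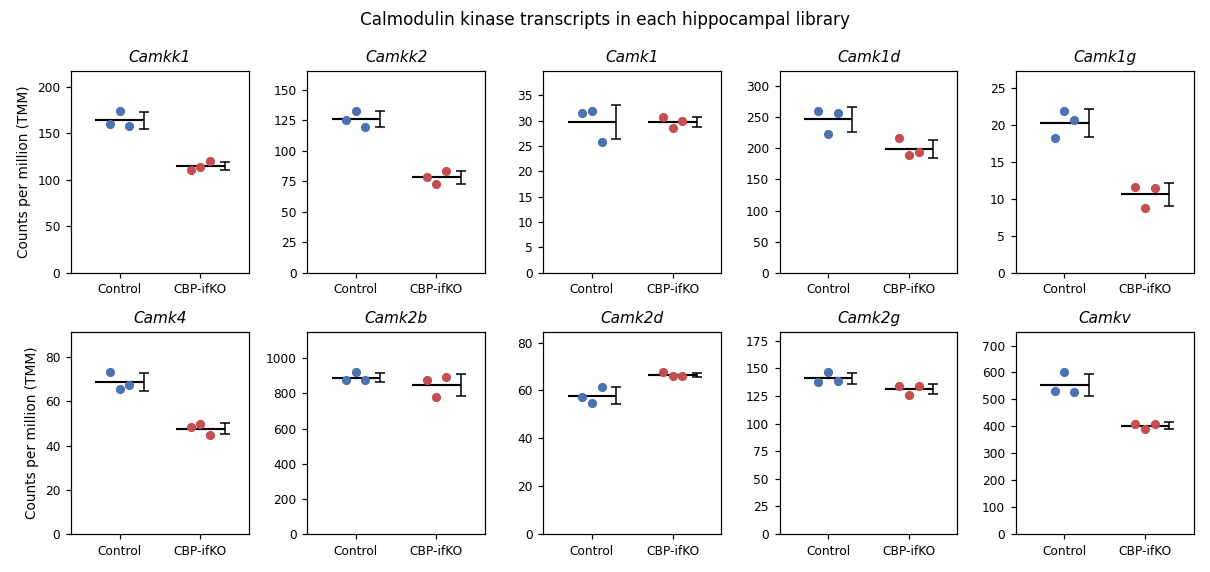
Expression of the 10 kinase genes in each library, in TMM-scaled CPM (vertical axes start at 0 and differ between panels). Points are single libraries (Control blue, CBP-ifKO red), horizontal lines the mean of 3 and bars the SD. In the panels of Camkk1, Camkk2, Camk1d, Camk1g, Camk4, Camkv and, by a small gap, Camk2g the red points all sit below the blue ones. In that of Camk2d they sit above, and in those of Camk1 and Camk2b the groups overlap.

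The genes of both upstream kinases were lower. Camkk1 (ENSMUSG00000020785, GRCm38 chromosome 11, 73019008 to 73042073, plus strand, protein coding) encodes CaMKK1, also known as CaMKK alpha. It was measured at 160.0, 174.1 and 157.9 CPM in Control replicates 1 to 3 and at 110.9, 114.0 and 119.8 CPM in libraries 1 to 3 of CBP-ifKO. The lowest Control library was far above the highest CBP-ifKO library, and the CBP-ifKO mean was 70.1% of the Control mean (164.0 ± 8.82 against 114.9 ± 4.54 CPM, SD, n = 3). The log2 fold change was -0.51, with an SE of 0.063 and a 95% interval from -0.65 to -0.38.

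Camkk2 (ENSMUSG00000029471, chromosome 5, 122731170 to 122779409, minus strand), which encodes CaMKK beta and also phosphorylates the energy sensor AMPK, stood at 125.7, 132.6 and 119.6 CPM in Control and at 78.8, 72.9 and 83.0 CPM in CBP-ifKO. The groups were again separate. The mean fell to 62.1% of Control (126.0 ± 6.51 to 78.2 ± 5.09 CPM), a log2 fold change of -0.69 (SE 0.068, 95% interval -0.83 to -0.54). Of all genes tested, 2.07% had a lower log2 fold change than Camkk2 and 4.46% a lower one than Camkk1.

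Camkk2 fell further than Camkk1 in relative terms. The log2 ratio of Camkk1 to Camkk2 within a library, which no scaling of libraries can change, was 0.35, 0.39 and 0.40 in Control and 0.49, 0.65 and 0.53 in CBP-ifKO. The groups did not overlap, and the ratio moved by 0.18 on the log2 scale. Summed per kilobase of exon, the CaMKK pair reached 55.5 ± 2.93 CPM per kb in Control and 38.0 ± 1.53 in CBP-ifKO, with Camkk1 taking 79.2% ± 0.33 and 81.1% ± 0.84 of the sum. With the length of the longest transcript in place of the exon length, Camkk1 took 63.0% ± 0.46 in Control and 65.8% ± 1.24 in CBP-ifKO. Camkk1 thus remained the more abundant CaMKK transcript in all 6 libraries.

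The CaMKI paralogues differed among themselves more than any other subfamily. Camk1g (ENSMUSG00000016179, chromosome 1, 193346346 to 193370298, minus strand) encodes CaMKI gamma, a lipid-anchored form that acts in dendrites. It was measured at 18.1, 21.8 and 20.6 CPM in Control and at 11.5, 8.74 and 11.4 CPM in CBP-ifKO, corresponding to raw counts between 119 and 254. All Control libraries were above all CBP-ifKO libraries. With 52.4% of the Control mean left (20.2 ± 1.89 to 10.6 ± 1.58 CPM), it had the largest fold change of the 10 genes, -0.95 on the log2 scale (SE 0.13, 95% interval -1.22 to -0.68), and only 0.667% of all genes tested had a lower one.

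Camk1d (ENSMUSG00000039145, chromosome 2, 5293457 to 5714515, minus strand), the gene of CaMKI delta, was the most abundant CaMKI member of the 10. Its values were 260.2, 222.8 and 257.4 CPM in Control and 216.2, 188.8 and 193.6 CPM in CBP-ifKO. The gap between the groups was narrow, 222.8 CPM being the lowest Control value and 216.2 CPM the highest CBP-ifKO value. Its log2 fold change was -0.31 (SE 0.070, 95% interval -0.46 to -0.16). Camk1d dropped out of the calls without Control replicate 1 or 3 and without CBP-ifKO replicate 2 or 3, with log2 fold changes of -0.27, -0.27, -0.26 and -0.28 and edgeR adjusted p-values of 0.0567, 0.0942, 0.0988 and 0.105.

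Camk1 (ENSMUSG00000030272, chromosome 6, 113334124 to 113343984, minus strand), which encodes CaMKI alpha, showed no difference at this depth. Its values were 31.5, 31.9 and 25.8 CPM in Control and 30.6, 28.6 and 30.0 CPM in CBP-ifKO. The groups overlapped throughout, the means were 29.7 ± 3.42 and 29.7 ± 1.04 CPM, and the log2 fold change of -0.0053 had a 95% interval from -0.20 to 0.19. Its sign turned under several alternatives. Camk1 shares 3.88% of its exon bases with Ogg1, a DNA repair gene on the opposite strand, and whether the counting used strand was not stated.

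**Figure D2:**
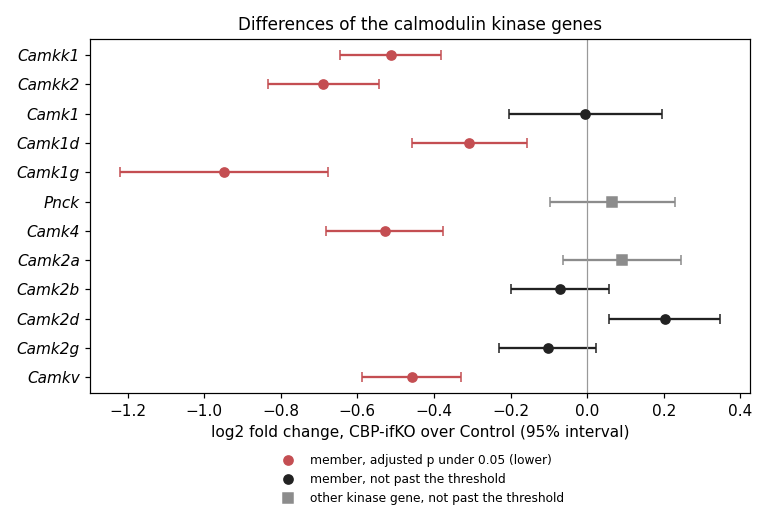
Log2 fold change of CBP-ifKO over Control for the 10 kinase genes (circles, red where the adjusted p was under 0.05) and for Camk2a and Pnck (grey squares), with 95% intervals from the edgeR fit of 3 against 3 libraries. Values run from -0.95 for Camk1g to 0.20 for Camk2d, and the intervals of Camk1, Camk2b, Camk2g, Camk2a and Pnck include 0.

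Because of these unequal differences, the make-up of the CaMKI transcripts shifted. Pnck, which encodes CaMKI beta, was measured at 53.8, 60.7 and 57.6 CPM in Control and at 55.5, 65.3 and 58.9 CPM in CBP-ifKO, so that its groups overlapped (0.07 on the log2 scale, SE 0.077, adjusted p 0.693 by edgeR). The 4 CaMKI genes together fell from 74.6 ± 0.91 to 66.1 ± 0.82 CPM per kb, with no overlap. Camk1g took 8.85%, 10.7% and 9.88% of that sum in Control and 6.28%, 4.77% and 6.37% in CBP-ifKO, whereas the share of Pnck went from 39.0% ± 2.43 to 46.0% ± 3.75. Neither share overlapped between the groups. The share of Camk1d (44.5% ± 3.54 and 40.7% ± 2.80) and that of Camk1 (6.67% ± 0.84 and 7.53% ± 0.29) overlapped. Within libraries, Camk1g lost 0.64 on the log2 scale against Camk1d and 0.95 against Camk1, in both cases without overlap, while the ratio of Camk1d to Camk1 overlapped between the groups. With the length of the longest transcript in place of the exon length, Camk1g took 8.75% ± 0.78 and 5.08% ± 0.80, and its groups stayed separate.

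**Figure D3:**
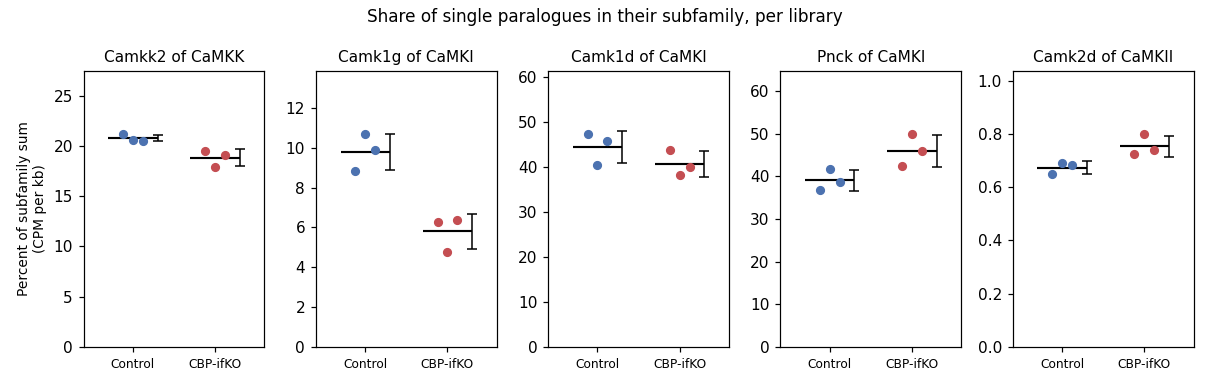
Share of single genes in the summed CPM per kb of exon of their subfamily (CaMKK: Camkk1 and Camkk2; CaMKI: Camk1, Camk1d, Camk1g and Pnck; CaMKII: Camk2a, Camk2b, Camk2d and Camk2g), per library, with mean and SD of 3; vertical axes start at 0 and differ between panels. The shares of Camkk2 and Camk1g are lower in every CBP-ifKO library, those of Pnck and Camk2d are higher, and the Camk1d panel shows overlapping groups.

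Promoter sequence from RefSeq (GRCm38.p6), matched by symbol, was read for 8 of the 10 genes, Camk1d having 2 starts. Camk4 and Camk2g were not among the genes read, so the statements below do not cover them. The 250 bases before the start are shown for the CaMKK pair, which were lower together, and for Camk1g, the gene with the largest difference, 5′ to 3′ on the strand of the gene; capitals mark TGACG, the core of the cAMP response element bound by CREB, read on either strand. The windows are chr11:73018738-73018987 (plus strand), chr5:122779411-122779660 (minus strand) and chr1:193370283-193370532 (minus strand), of which the last 16 bases lie inside the gene as GENCODE annotates it.
Camkk1: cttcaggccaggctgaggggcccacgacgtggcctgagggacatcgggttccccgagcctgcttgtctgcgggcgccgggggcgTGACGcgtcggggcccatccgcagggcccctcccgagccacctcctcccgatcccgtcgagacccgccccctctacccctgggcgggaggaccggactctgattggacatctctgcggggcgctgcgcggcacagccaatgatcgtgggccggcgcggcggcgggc
Camkk2: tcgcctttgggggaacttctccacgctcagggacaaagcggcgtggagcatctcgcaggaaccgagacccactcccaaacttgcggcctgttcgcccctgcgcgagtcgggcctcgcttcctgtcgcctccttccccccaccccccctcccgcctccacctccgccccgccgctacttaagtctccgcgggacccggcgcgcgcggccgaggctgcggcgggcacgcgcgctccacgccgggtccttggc
Camk1g: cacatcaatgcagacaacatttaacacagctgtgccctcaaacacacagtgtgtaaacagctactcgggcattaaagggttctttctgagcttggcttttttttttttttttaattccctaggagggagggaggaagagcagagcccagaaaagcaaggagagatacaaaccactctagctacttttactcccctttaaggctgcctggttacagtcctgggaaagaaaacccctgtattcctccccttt
TGACG was found in the Camkk1 window, starting 166 bases before the start, and in the window of Camk1, 185 bases before the start, and in none of the others. Over 32851 RefSeq promoter windows of this length it was present in 17.8%. The full element TGACGTCA was in none of the 9 windows, and in 1.55% of all windows. The windows differed in base composition: Camk1g had 44.8% GC and a single CG dinucleotide, a number not exceeded in 18.8% of all windows, whereas Camkk1 had 74.4% GC with 29 and Camkk2 72.4% GC with 32. The median over all windows was 52.4% GC and 6 CG dinucleotides. GGGCGG, the GC box, was present in the windows of Camkk1, Camkk2, Camkv, Camk2b, Camk2d and both of Camk1d, and in 32.7% of all windows. Not all of these windows lie upstream of the gene as GENCODE annotates it. Those of Camk2b and Camk2d and 1 of the 2 of Camk1d lie wholly inside it. Of the Camkv window 246 bases lie inside, and of the Camk1 window 62. CCAAT occurred in Camkk1 alone of the genes read, at 2 positions, against 33.8% of all windows, and TATAAA in none, against 12.4%. All motifs were read on both strands.

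The transcript of CaMKIV, the kinase of the cascade that phosphorylates CREB in the nucleus, was read next. Camk4 was measured at 73.1, 65.6 and 67.3 CPM in Control and at 48.4, 49.6 and 44.8 CPM in CBP-ifKO. The groups were well separated, with the CBP-ifKO mean at 69.3% of the Control mean (68.7 ± 3.94 to 47.6 ± 2.45 CPM). The log2 fold change was -0.53 (SE 0.072, 95% interval -0.68 to -0.38), close to that of Camkk1. The ratio of Camk4 to Camkk1 and the ratio of Camk4 to Camkk2 overlapped between the groups.

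Camk4 (ENSMUSG00000038128) lies on chromosome 18 (GRCm38, 32934931 to 33191228, plus strand). Of its exon bases, 2.21% are shared with 2310026I22Rik on the opposite strand. No stretch of 50 bases, the read length, was common to any pair of the 12 kinase genes, so that no exact read of that length fits the annotated transcripts of more than 1 of them.

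The CaMKII paralogues moved little. Camk2b (ENSMUSG00000057897, chromosome 11, 5969644 to 6066362, minus strand) encodes the actin-binding beta subunit. It was measured at 876.6, 920.0 and 875.6 CPM in Control and at 873.8, 777.3 and 894.1 CPM in CBP-ifKO. The groups overlapped, and the log2 fold change was -0.07 (SE 0.060, 95% interval -0.20 to 0.06). A fall of the size of that of Camkk1 lies outside this interval.

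Camk2g (ENSMUSG00000021820, chromosome 14, 20734875 to 20794088, minus strand), the gamma subunit, which can carry calmodulin to the nucleus, stood at 137.9, 146.4 and 138.3 CPM in Control and at 133.7, 125.7 and 134.3 CPM in CBP-ifKO. No library of one group reached the other, but the gap was small and the log2 fold change of -0.10 (SE 0.060, 95% interval -0.23 to 0.02) was not past the threshold.

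Camk2d (ENSMUSG00000053819, chromosome 3, 126596302 to 126846326, plus strand), the delta subunit best known from the heart, was the one gene of the 10 with a positive difference. Its values were 57.2, 54.8 and 61.6 CPM in Control and 67.5, 66.2 and 65.9 CPM in CBP-ifKO. Every CBP-ifKO library was above every Control library. The log2 fold change was 0.20 (SE 0.069, 95% interval 0.06 to 0.35) and was not past the threshold after adjustment. With library totals in place of TMM it was called, at 0.25 (edgeR adjusted p 0.0385). Against Camk2b and Camk2g in the same library, Camk2d gained 0.28 and 0.31 on the log2 scale, without overlap in either case, but against Camk2a it gained only 0.11, with overlapping groups.

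Camk2a, the alpha subunit and the gene whose promoter drives the recombinase, was measured at 2031, 1693 and 2092 CPM in Control and at 2205, 1948 and 2046 CPM in CBP-ifKO, with overlapping groups (0.09 on the log2 scale, SE 0.073, adjusted p 0.516 by edgeR, and 0.14 with GC and length trends removed, edgeR adjusted p 0.273). Arsi, a neighbour of Camk2a, went from 0.47 to 0.94 CPM in Control to 4.67 to 6.34 CPM in CBP-ifKO, and reads of transgenic and endogenous Camk2a sequence cannot be told apart in these counts. The sum of the 4 CaMKII genes was 381.9 ± 25.5 CPM per kb in Control and 393.2 ± 23.3 in CBP-ifKO, with overlap. Camk2d made up only 0.674% ± 0.023 of it in Control and 0.754% ± 0.039 in CBP-ifKO, so its higher share, which did not overlap between the groups, concerned the scarcest subunit.

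Camkv (ENSMUSG00000032936, chromosome 9, 107935674 to 107949691, plus strand), the kinase-inactive relative, was lower. It stood at 529.2, 600.3 and 528.0 CPM in Control and at 409.6, 388.9 and 408.6 CPM in CBP-ifKO. The groups were separate, the CBP-ifKO mean being 72.8% of the Control mean (552.5 ± 41.4 to 402.4 ± 11.7 CPM). The log2 fold change was -0.46 (SE 0.061, 95% interval -0.59 to -0.33), and -0.33 with GC and length trends removed, still past the threshold. Within libraries, Camkv lost 0.38 on the log2 scale against Camk2b, another abundant member, without overlap.

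Scaled to exon length, the 12 kinase genes spanned a wide range in Control. Camk2a led with 259.7 ± 28.8 CPM per kb, followed by Camkv (mean 146.8, libraries from 140.3 to 159.5), Camk2b (97.6 ± 2.78) and Camkk1 (44.0 ± 2.37). Camk1d (33.2 ± 2.80) and Pnck (29.1 ± 1.76) were next, and their ranges overlapped. So did those of Camk2g (21.5 to 22.9) and Camk4 (20.1 to 22.4). Camkk2 (11.5 ± 0.60), Camk1g (7.32 ± 0.68), Camk1 (4.98 ± 0.57) and Camk2d (2.57 ± 0.15) closed the order without overlap between neighbours. In CBP-ifKO, Pnck (30.4 ± 2.51) stood above Camk1d (26.9 ± 1.97) and Camk1 (4.97 ± 0.17) above Camk1g (3.83 ± 0.57), and the other 8 genes kept their places. The ranges of Pnck (from 28.2) and Camk1d (up to 29.1) overlapped in CBP-ifKO too. The order depends on the length used. By the longest transcript, Camk2b (215.9 ± 6.15 CPM per kb) came before Camkv (168.6 ± 12.6) in Control, and Camk1g (8.18 ± 0.76) came last, behind Camk2d (10.5 ± 0.62) and Camk1 (12.4 ± 1.43). By that length Pnck (37.4 ± 2.26) stood above Camk1d (35.4 ± 2.99) in Control already, with overlapping ranges.

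**Figure D4:**
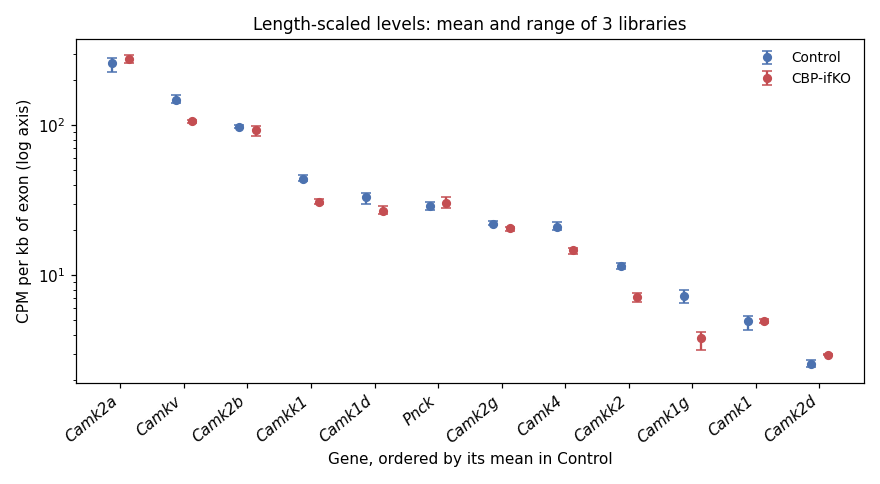
Length-scaled level of the 10 genes and of Camk2a and Pnck, in CPM per kb of exon on a log axis, ordered by the Control mean. Points are means of 3 libraries and bars run from the lowest to the highest library. Control levels run from 259.7 for Camk2a to 2.57 for Camk2d, and Camk1g crosses below Camk1 in CBP-ifKO.

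For the 4 cascade genes with the largest differences, the genes with the most similar profile over the 6 libraries were sought among 12236 tested genes with a mean of at least 5 CPM, by the root mean square difference of log2 CPM after centring. The 6 libraries share the genotype contrast, so this is a description and not a sign of common control. Closest to Camk1g were Necab2 (0.064) and Necab3 (0.086), which encode neuronal EF-hand calcium-binding proteins, and between them Zdhhc22 (0.085), a palmitoyltransferase. Necab2 went from a mean of 49.5 to 27.7 CPM. Closest to Camkk2 were Gpd1 (0.039), a glycerol-3-phosphate dehydrogenase, Sstr3 (0.048), a somatostatin receptor, and Kcnh3 (0.057), a potassium channel, with log2 fold changes of -0.71, -0.66 and -0.70. Closest to Camkk1 were Lhfpl3 (0.025), Mycl (0.033) and Lmna (0.038), and closest to Camk4 were Met (0.055), Coch (0.061) and Sema3e (0.062), which encode a hepatocyte growth factor receptor, an extracellular matrix protein and a semaphorin.

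The wider calcium/calmodulin pathway was described by 58 further genes in 10 lists, Camk2a and Pnck included. Of these, 56 were tested and 12 were lower at the threshold, none was higher with edgeR or DESeq2, and the median log2 fold change was -0.07, beside 4.99% of all genes tested called lower and 1.4% called higher. At an unadjusted edgeR p under 0.05 the numbers were 20 lower and 2 higher, beside 13% and 8.23% of all genes tested. Groups did not overlap in 19 lower and 4 higher genes of the 56, beside 13.9% and 11.8% of all genes tested. The lower genes were found among inhibitors, calmodulin and its buffers, calcineurin, other calmodulin-regulated enzymes and factors downstream of CaMKI and CaMKIV. Camk1g, Camk4, Camkk1, Camkk2, Camkv, Camk2n1, Calm3 and Ppp3r1 also stand in the set of lower genes of the study, which was derived in part from these samples and so is not independent evidence.

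Of the CaMKII inhibitors, Camk2n1 was lower in CBP-ifKO (355.4, 382.4 and 373.6 against 292.4, 270.3 and 286.1 CPM, log2 fold change -0.39, edgeR adjusted p 6.20e-04), whereas Camk2n2 gave 0.15 (edgeR adjusted p 0.613), and 0.42 with GC and length trends removed (edgeR adjusted p 0.0814). Calm3, a gene of calmodulin itself, was called lower (-0.33, edgeR adjusted p 0.00427), while Calm2, which encodes the same protein, gave -0.04 (edgeR adjusted p 0.790). Whether Calm3 and Calm2 differ from each other was not tested. Nrgn, the gene of neurogranin, which holds calmodulin in its calcium-free form, had the largest fall of the 3 calmodulin-binding IQ protein genes, with levels of 176.4, 222.5 and 202.3 CPM in Control and 132.3, 102.9 and 127.5 CPM in CBP-ifKO (-0.73, edgeR adjusted p 1.76e-04). All CBP-ifKO values of Camk2n1, Calm3 and Nrgn were below those of Control.

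In the calcineurin list, the phosphatase that opposes the kinases, 1 of 8 genes was lower, the regulatory subunit Ppp3r1 (-0.24, edgeR adjusted p 0.0126), which shares 14.3% of its exon bases with Wdr92 on the same strand. Of 12 further calmodulin-regulated enzymes, 4 were lower: Itpka, an inositol trisphosphate kinase of dendritic spines (-0.58, edgeR adjusted p 3.02e-04), Mylk, the myosin light chain kinase (-0.50, edgeR adjusted p 0.0200), Nos1, the neuronal nitric oxide synthase (-0.41, edgeR adjusted p 0.0141), and Pde1a, a calmodulin-dependent phosphodiesterase (-0.26, edgeR adjusted p 0.0232). Of 8 factors phosphorylated by CaMKIV or CaMKI, 4 were lower: the class IIa deacetylase genes Hdac5 (-0.50, edgeR adjusted p 0.00158) and Hdac4 (-0.32, edgeR adjusted p 0.0146), and the transcription factor genes Mef2d (-0.43, edgeR adjusted p 0.00377) and Srf (-0.44, edgeR adjusted p 0.0290). With GC and length trends removed, Srf was not called, at -0.15 (edgeR adjusted p 0.340), and Hdac5, Itpka and Calm3 were smaller but still called, at -0.31, -0.38 and -0.21.

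Of the 12 lower pathway genes, 6 lost the call under some alternatives, with fewer libraries in most cases. Srf lost it in 7 of 13, those with GC and length trends removed and the fits without Control replicate 2 or 3 or any CBP-ifKO replicate, with edgeR adjusted p-values from 0.0558 to 0.340. Pde1a lost it with library totals and when replicate 1 or 3 of either group was left out (-0.25 to -0.21, edgeR adjusted p 0.0578 to 0.134). Hdac4 lost it when Control replicate 1 or 3 was left out, and likewise for CBP-ifKO replicate 2 or 3 (-0.31 to -0.27, edgeR adjusted p 0.0511 to 0.112). Nos1 was not called when CBP-ifKO replicate 2 or Control replicate 1 or 3 was left out (-0.38 to -0.29, edgeR adjusted p 0.0528 to 0.0942), and Mylk without Control replicate 1 or CBP-ifKO replicate 2 or 3 (-0.45 to -0.40, edgeR adjusted p 0.0824 to 0.118). Ppp3r1 was not called without replicate 3 of either group (-0.22 and -0.20, edgeR adjusted p 0.0902 and 0.122). Camk2n1, Calm3, Nrgn, Itpka, Hdac5 and Mef2d were called in all 13. Hdac4 shares 22.4% of its exon bases, and Mef2d 8.87%, with a gene on the opposite strand. Creb1, the best known substrate of CaMKIV, gave 0.06 (edgeR adjusted p 0.684).

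The remaining 3 lists held no call. The CaMK phosphatases gave -0.16 for Ppm1e (edgeR adjusted p 0.106), the AMPK subunits, substrates of CaMKK2 among them, gave 0.25 for Prkaa1 (edgeR adjusted p 0.0641), and the kinases related to CaMK gave 0.76 for Stk33 (edgeR adjusted p 0.107), a gene at 1.46 to 3.75 CPM. At an unadjusted edgeR p under 0.05 these lists held 1 of 2, 2 of 6 and 2 of 10 tested genes. Of these, 1 in each list was lower, beside 13% of all genes tested. The AMPK list and the list of related kinases each held 1 higher, beside 8.23%. Ppm1e and Prkaa1 each passed the threshold under 3 of 13 alternatives. Prkag3 and Dapk2 were too low to be tested.

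**Figure D5:**
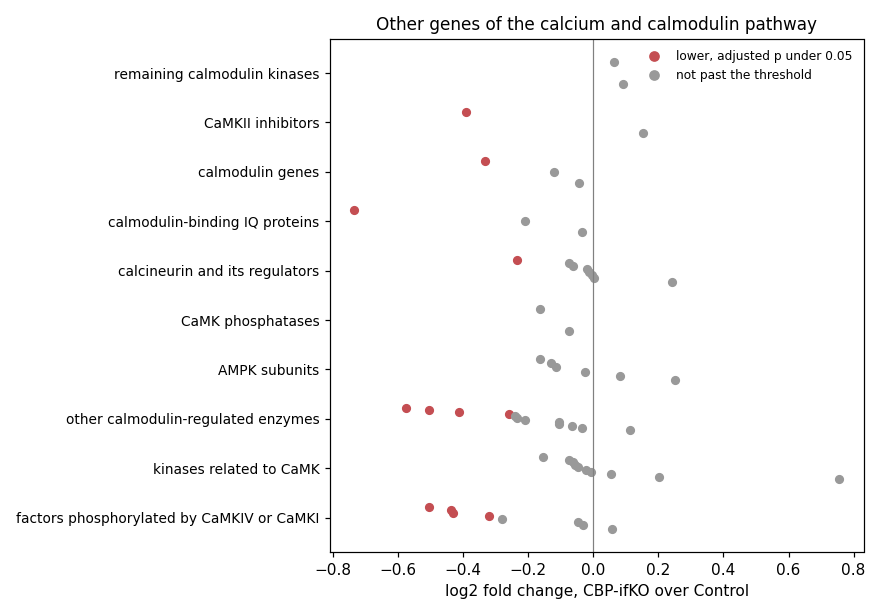
Log2 fold change of CBP-ifKO over Control for the 56 tested genes of 10 calcium/calmodulin pathway lists, each point a gene, red where it was lower with an adjusted p under 0.05. The 12 red points lie between -0.73 (Nrgn) and -0.24 (Ppp3r1), and 4 of the 10 lists have none.

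Markers of hippocampal cell types were read beside these results. Of all genes tested, edgeR called 4.99% lower and 1.4% higher. CA1 pyramidal markers moved with the lower kinase genes: 4 of 5 were lower (Wfs1, Fibcd1, Mpped1 and Pou3f1), and their summed level went from 349.2 to 361.2 CPM in Control to 221.6 to 235.8 CPM in CBP-ifKO, 64.1% of the Control mean. For CA3 pyramidal cells 2 of 5 markers were lower, with sums of 387.9 to 443.7 against 322.6 to 357.3 CPM. For dentate granule cells 1 of 6 was lower (C1ql2), with overlapping sums of 888.1 to 945.3 and 860.8 to 943.4 CPM. At an unadjusted edgeR p under 0.05, 3 of these 6 were lower and 2 higher (Prox1 and Calb1), beside 13% and 8.23% of all genes tested. General markers of excitatory neurons had 1 lower gene of 5 and overlapping sums of 895.8 to 956.6 and 794.4 to 928.1 CPM. The part of these shifts in the kinase differences was not tested.

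For interneurons 2 of 7 markers were lower (Slc32a1 and Sst), with sums of 546.4 to 580.1 CPM in Control and 494.2 to 526.9 CPM in CBP-ifKO. No marker of astrocytes, oligodendrocytes, microglia, endothelial cells or the thalamus was called by edgeR, and their sums overlapped between the groups. At an unadjusted edgeR p under 0.05 there were 1 of 6, 1 of 6, 2 of 6, 1 of 5 and 1 of 5, in that order. All were lower but the thalamic one, beside 13% lower and 8.23% higher over all genes tested. Every CBP-ifKO library lay below every Control library for 1 astrocyte, 3 microglia and 3 endothelial markers, beside 13.9% of all genes tested. For 1 thalamic marker every CBP-ifKO library lay above, beside 11.8%. Of 5 choroid plexus markers 2 stayed under 1 CPM, and the others were not called. At an unadjusted edgeR p under 0.05, 1 of them was lower and 1 higher, beside 13% and 8.23% of all genes tested. Of 5 cerebellar markers Cbln3, Gabra6 and Barhl1 stayed under 1 CPM, Car8 was not called, and Calb2, also made by hippocampal cells, was lower. The cerebellar sums, 26.4 to 32.2 CPM in Control and 18.5 to 23.7 CPM in CBP-ifKO, did not overlap.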

How the data were processed

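Total RNA of hippocampus was sequenced in 6 samples, 3 Control and 3 CBP-ifKO, grouped by the sample titles. The authors trimmed 50 bp single-end reads (Trim Galore 0.6.4), aligned them with STAR (2.6.1, per the submitters' processing notes) to GRCm38 and counted reads over the exons of Ensembl genes. The values deposited are unnormalized counts of reads per gene, and whether counting used strand was not stated. Symbols, exon length and GC content came from the GENCODE annotation of GRCm38, which matched 55144 of 55471 identifiers (99.4%).

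Counts were tested with edgeR (4.0.16, R 4.3.3): TMM scaling, filterByExpr (minimum count 10, minimum total 15), quasi-likelihood F-test, Benjamini-Hochberg adjustment over 17981 genes and a threshold of 0.05. Intervals are 95% intervals of the fit. The fit was tested on simulated data. Replicates differed by more than sampling noise (chi-square per degree of freedom at least 2.48), and p-values cover only the spread between these pooled samples. Levels between genes were compared as CPM per kb of exon.

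The 10 genes, the lists and the rule for the genes named (all 10; the called genes of each list, or else the gene with the largest change at 1 CPM or more; Camk2a, Crebbp and Esr1; 3 nearest genes for 4 members) were chosen with earlier results of these data known. Creb1, Camk2n2, Calm2, Arsi and Pnck, named beside them, fall outside the rule and were added after their values were seen. Alternatives were DESeq2 (1.42.0, the tool of the study), RLE and library-total scaling, no filter, each library left out, the replicate number as a block, GC and length offsets (5 degrees of freedom), and the longest transcript as length.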

Additional observations from a re-analysis of the deposited data

How the results depend on the processing

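The 10 kinase genes gave 6 lower calls, the same genes, with DESeq2, RLE scaling, library totals, no filter, the replicate block, the offsets for GC and length, and both together, and 5 to 6 when single libraries were left out, the loss being Camk1d. Calls of higher members were 0, but 1 (Camk2d) with library totals, a scaling that moved the median of all genes from -0.0033 to 0.043 and the split of lower and higher calls from 897 and 252 to 667 and 514. Over the 13 alternatives the log2 fold change ran from -1.02 to -0.81 for Camk1g, -0.72 to -0.63 for Camkk2, -0.57 to -0.48 for Camk4, -0.54 to -0.45 for Camkk1, -0.49 to -0.33 for Camkv, -0.37 to -0.26 for Camk1d, -0.12 to -0.06 for Camk2g, -0.10 to -0.0037 for Camk2b and 0.17 to 0.25 for Camk2d. Camk1, close to 0, turned positive with RLE scaling (0.0014), library totals (0.040), no filter (0.0030) and DESeq2 (0.0053), and ran from -0.093 to 0.057 over the fits without 1 library; the cause was not tested.

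Of the other pathway genes, 12 were called lower, and 7 to 13 when single libraries were left out. The number was 7 without Control replicate 3 or CBP-ifKO replicate 3, and 13 without Control replicate 2. Over all genes, these fits called 467, 450 and 984 lower, in that order. Each had 1 library fewer, and why they differed was not tested. Higher calls, 0 in all, became 1 with library totals, 1 with no filter, 0 to 1 without single libraries, (Prkaa1 in each), and 2 with block and offsets combined (Camk2n2 at 0.41 and Camk2a at 0.15); the cause was not tested. Same-numbered replicates deviated together only weakly (correlations of 0.077, 0.037 and 0.0022), so the number was not taken to pair the samples, and the replicate block gave 6 lower members and 13 lower pathway genes. Calls over all genes numbered 897 lower and 252 higher, 723 and 180 with DESeq2 over 14628 genes, and 1319 and 543 with block and offsets combined. With 3 pooled samples a group and low counts, as for Camk1g and Camk1, intervals of the fold change are wider than for the abundant kinases.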
